A study of Mus musculus with 7 samples.

Results

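The 10 genes described here belong to the Notch pathway. They are the receptors Notch1, Notch2, Notch3 and Notch4, the ligands Jag1 and Jag2, the targets Hes1, Hey1 and Nrarp, and Mfng, an enzyme that adds sugar to the receptors. They were listed by name, and all 10 were among the 18193 genes measured, on 19 probe sets that carry a single gene symbol. A probe set is a group of short oligonucleotides on the array that together read 1 transcript, and 7 of the 10 genes had more than 1. RNA had been taken from Cd34+ Epcam+ cells sorted by flow cytometry from mouse skin tumours, and hybridised to 7 Affymetrix arrays. Carcinomas, the malignant tumours, gave 4 arrays, named carcinoma GFP and carcinoma 1, 2 and 3, and papillomas, the benign tumours, gave 3, named papilloma GFP and papilloma 1 and 2. All tumours, in both groups, had been induced by the chemical carcinogen DMBA followed by TPA, which drives initiated cells to grow. Strain, age and sex are not stated by the labels. The descriptions put the name Nr2f2 before the tumour type in both groups without stating a genotype, and the labels do not explain the GFP tag in the title of 1 array of each tumour type. Separate animals are not stated either, and the p-values therefore cover only the spread between arrays, which may be technical.

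Notch receptors sit in the cell membrane and bind ligands of the Jagged and Delta families on a neighbouring cell. Binding exposes the receptor to a metalloprotease and then to the gamma-secretase complex, which releases the intracellular domain. This domain enters the nucleus, joins the DNA-binding protein Rbpj and coactivators of the Mastermind family, and switches on genes such as Hes1, Hey1 and Nrarp. In the epidermis the pathway is known for driving keratinocytes out of the basal layer and into differentiation, and loss of Notch1 in mouse skin favours tumours. In blood vessels Notch4, Dll4 and Hey1 are characteristic of endothelium, and Notch3 of the mural cells around it. Nr2f2, the nuclear receptor in the title of the series, is known in mouse veins for holding Notch signalling down.

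The arrays with the GFP tag stood apart from the other 5. The median level of 15 endothelial markers was 10.97 and 11.02 in the tagged carcinoma and papilloma arrays, against 5.24 to 5.55 in the untagged arrays, on the log2 scale of the deposited values. The median of 12 fibroblast markers was 11.50 and 10.55 in the tagged arrays, against 5.89 to 7.73, and that of 8 pericyte and smooth muscle markers 8.62 and 7.99, against 5.41 to 6.55. Medians of 6 epithelial markers went the other way, at 8.86 and 8.57 in the tagged arrays against 10.24 to 11.34. Epcam itself was at 9.59 and 8.28 in these 2 arrays, with 10.52 to 11.97 elsewhere, and Cd34 at 11.73 and 11.66, with 8.76 to 10.80 elsewhere. The 3′ minus 5′ difference of the Gapdh control probe sets, which grows as labelled RNA shortens, was 3.19 in both tagged arrays and between -0.04 and 0.06 in the others. Nr2f2 had 9.12 in carcinoma GFP and 9.12, 8.35 and 7.74 in carcinomas 1 to 3, against 8.54 in papilloma GFP and 7.16 and 6.40 in papillomas 1 and 2. Correlations between arrays ran from 0.857 to 0.992, so no array was a copy of another. Values are therefore given by tumour type over all 7 arrays, by tumour type among the untagged arrays, and by tag.

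None of the 10 Notch genes separated carcinoma from papilloma cells. The receptor Notch2 had the highest carcinoma minus papilloma difference, at 0.50 log2 units, and Notch4 the lowest, at -0.91, but for every member the levels of the carcinoma and papilloma arrays overlapped. With limma over all 18193 genes, 0 of the 10 members passed an adjusted p of 0.05, and 0% of all genes did. At an unadjusted p under 0.05 there were 0 members and 112 genes. Groups did not overlap for 258 genes, which is 1.42% of those tested, and for 0 members. The median difference was -0.23 over the members and -0.02 over all genes. With 4 arrays against 3 an exact permutation test cannot go below 0.0571. Taking the arrays numbered 1, those numbered 2 and the GFP arrays as pairs, Notch1 and Notch2 were above 0 in all 3 pairs and Notch4 and Mfng below 0 in all 3. The other members had mixed signs. The share of all genes with 1 sign in all 3 pairs was not counted, so these signs are no result about the members. With the replicate block, to which the unpaired carcinoma 3 adds nothing, the differences were 0.43 (SE 0.19) for Notch1, 0.63 (SE 0.26) for Notch2, -0.37 (SE 0.18) for Notch4 and -0.31 (SE 0.19) for Mfng, each with a limma adjusted p of 0.999.

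**Figure D1:**
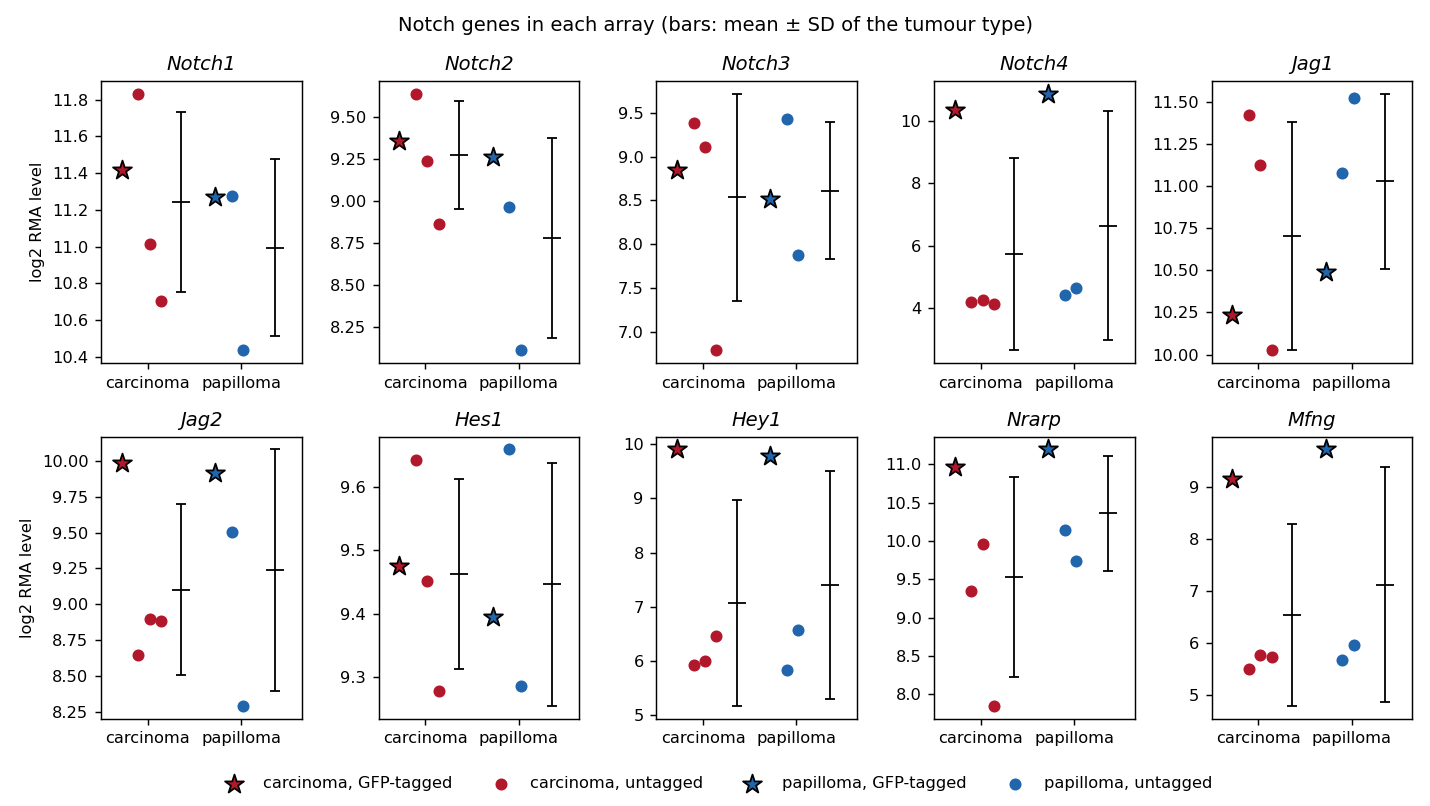
Level of each Notch gene in each array on the log2 RMA scale, with carcinoma left of papilloma, stars for GFP-tagged arrays and circles for untagged arrays. Bars give the mean and SD over all arrays of a tumour type. The tumour types overlap in every panel, and the stars lie far above the circles for Notch4, Hey1 and Mfng.

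Notch1, the main receptor of the epidermis, had 11.42 in carcinoma GFP and 11.83, 11.02 and 10.70 in carcinomas 1 to 3, against 11.27 in papilloma GFP and 11.28 and 10.44 in papillomas 1 and 2. Carcinoma 1 was highest and papilloma 2 lowest, and the groups overlapped. The means were 11.24 ± 0.49 in carcinomas and 10.99 ± 0.48 in papillomas (SD, n = 4 and 3), a difference of 0.25 (SE 0.34, 95% interval -0.56 to 1.06, exact permutation p = 0.514). The other Notch1 probe set, 1418633_at, differed by 0.36 (SE 0.28).

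Notch2, a receptor that epidermal cells also carry, had 9.35 in carcinoma GFP and 9.63, 9.24 and 8.86 in carcinomas 1 to 3, against 9.26 in papilloma GFP and 8.96 and 8.11 in papillomas 1 and 2. Papilloma 2 lay lowest here too, and papilloma GFP lay inside the carcinoma range. The difference was 0.50 (SE 0.32, 95% interval -0.26 to 1.25, exact permutation p = 0.343). Among the untagged arrays it was 0.71 (SE 0.36), and without papilloma 2 it was 0.16. The second probe set, 1451889_at, differed by 0.07 (SE 0.33).

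Notch3, a receptor of keratinocytes and of mural cells of vessels, had 8.85 in carcinoma GFP and 9.39, 9.11 and 6.79 in carcinomas 1 to 3, against 8.51 in papilloma GFP and 9.44 and 7.88 in papillomas 1 and 2. Carcinoma 3 stood more than 1 unit below any other array, and the remaining carcinomas lay inside the papilloma range. The difference was -0.08, with an SE of 0.69 and a 95% interval of -1.71 to 1.56, so the data bound it only loosely (exact permutation p = 0.971). On the second probe set, 1421964_at, carcinoma 3 was again lowest at 4.59, against 5.31 in papilloma 2 and 5.81 to 7.09 in the others, and the difference was 0.09 (SE 0.68).

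Notch4, the receptor typical of endothelium, had 10.37 in carcinoma GFP and 4.18, 4.26 and 4.12 in carcinomas 1 to 3, against 10.87 in papilloma GFP and 4.42 and 4.63 in papillomas 1 and 2. The tagged array of each tumour type was bright and the 5 untagged arrays were dim, between 4.12 and 4.63. The tumour types differed by -0.91 (SE 2.17, 95% interval -6.04 to 4.22, exact permutation p = 0.343). Among the untagged arrays the difference was -0.34 (SE 0.20), and carcinoma GFP minus papilloma GFP was -0.51.

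Jag1, a Jagged ligand made in epidermis and hair follicle, had 10.23 in carcinoma GFP and 11.42, 11.12 and 10.03 in carcinomas 1 to 3, against 10.49 in papilloma GFP and 11.08 and 11.52 in papillomas 1 and 2. Carcinoma 3 was lowest, with the tagged arrays next. The means were 10.70 ± 0.68 in carcinomas and 11.03 ± 0.52 in papillomas (SD, n = 4 and 3), a difference of -0.33 (SE 0.42, 95% interval -1.32 to 0.67, exact permutation p = 0.457). The other Jag1 probe sets differed by 0.13 (SE 0.87, 1421106_at) and 0.20 (SE 0.55, 1421105_at), opposite in sign to the brightest.

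Jag2, the other Jagged ligand, had 9.98 in carcinoma GFP and 8.64, 8.90 and 8.89 in carcinomas 1 to 3, against 9.91 in papilloma GFP and 9.50 and 8.29 in papillomas 1 and 2. The papillomas covered nearly the whole range of the carcinomas. The difference was -0.13 (SE 0.48, 95% interval -1.26 to 0.995, exact permutation p = 0.8). The second probe set, 1426431_at, differed by 0.51 (SE 0.44), so the 2 probe sets of Jag2 disagreed in sign.

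Hes1, a repressor of transcription and the most general target of Notch, had 9.48 in carcinoma GFP and 9.64, 9.45 and 9.28 in carcinomas 1 to 3, against 9.39 in papilloma GFP and 9.66 and 9.29 in papillomas 1 and 2. All 7 arrays lay within 0.4 units and the groups interleaved. The means were 9.46 ± 0.15 in carcinomas and 9.45 ± 0.19 in papillomas (SD, n = 4 and 3). Of the members Hes1 had the narrowest interval for tumour type, -0.39 to 0.42 around a difference of 0.02 (SE 0.17, exact permutation p = 0.914).

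Nrarp, which binds the Notch complex and dampens it, had 10.97 in carcinoma GFP and 9.35, 9.96 and 7.85 in carcinomas 1 to 3, against 11.20 in papilloma GFP and 10.14 and 9.74 in papillomas 1 and 2. Within each tumour type the tagged array was highest, and carcinoma 3 lay lowest of all. The difference was -0.83 (SE 0.74, 95% interval -2.57 to 0.92, exact permutation p = 0.343). It was -0.27 without carcinoma 3 and -1.31 without carcinoma GFP. It was also -0.89 (SE 0.62) among the untagged arrays, -0.23 within the tagged pair, and -0.62 (SE 0.51) on the second probe set, 1417986_at.

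Hey1, a repressor related to Hes1 and prominent in arterial endothelium, had 9.91 in carcinoma GFP and 5.92, 6.0 and 6.45 in carcinomas 1 to 3, against 9.79 in papilloma GFP and 5.82 and 6.57 in papillomas 1 and 2. Mfng, a Fringe enzyme that lengthens the sugars on the receptors, had 9.17 in carcinoma GFP and 5.49, 5.77 and 5.73 in carcinomas 1 to 3, against 9.74 in papilloma GFP and 5.67 and 5.95 in papillomas 1 and 2. For both genes the tagged arrays were high and the untagged arrays low, and the tumour types overlapped. The carcinoma minus papilloma differences were -0.33 (SE 1.30) for Hey1 and -0.58 (SE 1.29) for Mfng, and among the untagged arrays -0.07 (SE 0.31) and -0.15 (SE 0.21).

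**Figure D2:**
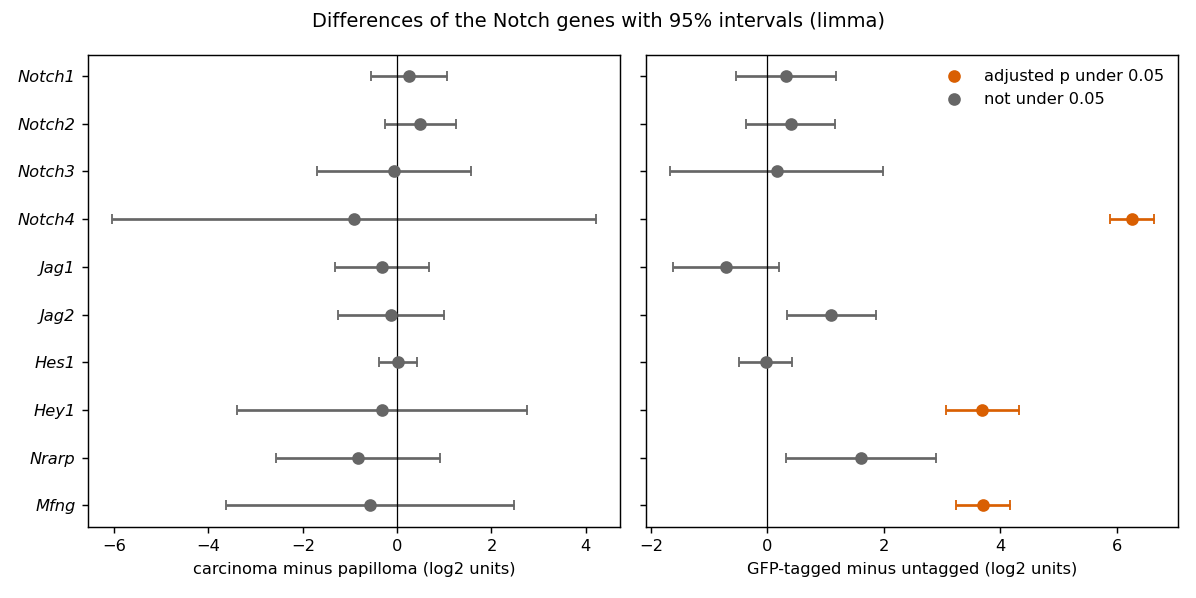
Difference of each Notch gene in log2 units with its 95% interval from limma, carcinoma minus papilloma on the left and GFP-tagged minus untagged on the right. All 10 intervals on the left contain 0, and on the right Notch4, Hey1 and Mfng passed an adjusted p of 0.05.

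Further components of the pathway did not separate the tumour types either. Of 55 listed genes 49 were measured, 0 passed the limma test of tumour type, and their median difference was 0.03 against -0.02 over all genes. Neurl1b, a ubiquitin ligase that acts on ligands, differed most at -1.12 (SE 0.85), followed in its role by Dtx3l, also a ubiquitin ligase, at -0.34. Hes6, a relative of Hes1 that opposes it, differed by 0.82 (SE 0.58) and Heyl by -0.36. Among other ligands Dll4 differed by -0.48 and Dll1 by 0.34. Of the enzymes that put sugars on the receptors, Rfng differed by -0.29 and Pofut1 by 0.21. The remaining differences were those of the cleavage genes Ncstn (-0.16) and Furin (0.14), the acetyltransferases Ep300 (0.21) and Kat2b (0.16), and the corepressor genes Cir1 (0.35) and Hdac1 (-0.09). None of these values passed the test.

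The Notch genes differed in how far they moved with the tag. Notch4, Hey1 and Mfng rose in the GFP-tagged arrays, by 6.26, 3.69 and 3.70 log2 units, while Hes1, Notch1, Notch2 and Notch3 differed by at most 0.40 on their brightest probe sets. Nrarp and Jag2 lay above all untagged arrays on their brightest probe sets without passing the test. The share of all genes whose tagged and untagged arrays do not overlap was not counted. The comparison set the 2 tagged arrays against the 5 untagged ones with limma and with tumour type as a covariate. It called 3601 genes at an adjusted p under 0.05, 19.8% of those tested, with 2159 higher (11.9%) and 1442 lower (7.93%). Without carcinoma GFP it called 861 genes and without papilloma GFP 1462. Of the members 3 of 10 were called higher and 0 lower. Without carcinoma 3 the fit called 3500 of the 18193 genes and 5 of the 10 members, 4 higher and 1 lower. The added members were Nrarp, which was higher, and Jag1, which was lower. The median over the members was 0.75, against -0.05 over all genes. Across all 34945 probe sets with a single symbol, 9.15% were called higher and 6.85% lower, against 4 and 2 of the members' 19. The medians of the endothelial, fibroblast, pericyte and epithelial markers moved with the tag, as given above. So did the medians of 9 myeloid markers, at 7.31 and 7.36 in the tagged arrays against 5.504 to 6.55 in the untagged arrays, 6 melanocyte markers, at 6.32 and 6.46 against 4.73 to 5.40, and 8 basal keratinocyte markers, at 10.70 and 10.17 against 11.46 to 12.30. Not every marker followed its list. The fibroblast marker Fbln1 differed by -0.21 and the melanocyte marker Tyr by -0.22, opposite in sign to their lists. The epithelial marker Krt8 (-0.10) and the myeloid marker Cd68 (0.06) hardly differed. The median of 10 suprabasal markers was 7.37 and 7.46 in the tagged arrays, inside the untagged range of 6.54 to 8.56. That of 7 T cell markers was 6.15 in both, inside 4.73 to 6.38. Of these 7 markers 3 were nevertheless called higher, among them Thy1, which is also on the fibroblast list. The part of the marker lists in the differences of the Notch genes was not tested. In sorted bulk RNA, more or fewer cells of a type and more or less RNA per cell cannot be told apart.

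Notch4 had the widest gap on its brightest probe set, 1449146_at, with tagged arrays at 10.37 and 10.87 and untagged arrays at 4.32 ± 0.21 (SD, n = 5). The difference of 6.26 (SE 0.16, 95% interval 5.88 to 6.64, limma adjusted p = 1.41e-05) is one between measured values. No detection calls were available, the untagged values lay under the median of every array (5.38 to 5.51), and whether they stand above background is not known, so no fold is given. The probe set was chosen by its mean over all 7 arrays, which the tagged arrays raised, and among the untagged arrays it was not the brightest of the 3. With the 3 probe sets averaged the difference was 2.57 (SE 0.14, limma adjusted p = 9e-05). On the brightest it was 6.18 within the carcinomas and 6.35 within the papillomas. A second probe set, 1456263_at, had 5.78 and 6.58 in the tagged carcinoma and papilloma arrays, against 4.17 to 4.72 in the untagged arrays, and rose by 1.71 (SE 0.27, limma adjusted p = 0.00812 over the probe sets). The third, 1436901_at, had 4.43 and 4.30 in the tagged arrays, against 4.43 to 4.86, and differed by -0.25 (SE 0.19, adjusted p = 0.45). The 3 probe sets of Notch4 thus disagreed in size and 1 of them in sign. The 3′ minus 5′ difference of the control probe sets moved with the tag, and its part in this disagreement was not tested.

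Promoter windows were at hand for 7 of the 10 members in the RefSeq table of build GRCm38.p6, covering 250 bases before to 50 bases after the annotated start. They were searched on both strands for TGGGAA, the core bound by Rbpj, for TGANTCA, the AP-1 site of the factors that TPA activates, and for the E-box CACGTG, a site of Myc and of some Hey proteins. The windows of Notch4 and Nrarp are shown because they held a match, with the matched letters in capitals. Notch4 lies on the plus strand at chr17:34564045-34564344, and its window holds an AP-1 match beginning at position -4 relative to the start.
Notch4: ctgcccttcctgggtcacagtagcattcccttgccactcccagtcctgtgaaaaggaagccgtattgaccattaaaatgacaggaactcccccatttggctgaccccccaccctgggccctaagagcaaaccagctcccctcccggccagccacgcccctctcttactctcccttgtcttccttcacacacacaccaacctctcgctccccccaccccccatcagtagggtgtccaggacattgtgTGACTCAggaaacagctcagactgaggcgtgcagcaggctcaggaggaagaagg
Nrarp lies on the plus strand at chr2:25180508-25180807, and its E-box match begins at position -108.
Nrarp: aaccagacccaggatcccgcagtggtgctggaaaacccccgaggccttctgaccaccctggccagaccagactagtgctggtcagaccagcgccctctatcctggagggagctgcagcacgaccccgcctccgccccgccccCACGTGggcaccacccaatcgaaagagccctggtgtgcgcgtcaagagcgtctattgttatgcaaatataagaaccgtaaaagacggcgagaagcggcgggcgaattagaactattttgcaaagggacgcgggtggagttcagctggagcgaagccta
Matches to TGANTCA occur in 7.93% of 27025 promoter windows of this length and to CACGTG in 7.24%. TGGGAA or its reverse TTCCCA occurs in 25.5% of them and in 0 of the 7 members' windows, and the windows of Notch1, Notch2, Notch3, Jag1 and Jag2 held 0 matches to any of the 3 motifs. A match describes letters only, and binding was not measured. Hes1, Hey1 and Mfng had no entry.

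Hey1 averaged 9.85 in the tagged arrays and 6.16 ± 0.34 in the untagged arrays (n = 2 and 5, SD for the untagged). The difference was 3.69 (SE 0.26, 95% interval 3.06 to 4.32, limma adjusted p = 0.000269), with 3.78 in carcinomas and 3.59 in papillomas. Mfng averaged 9.45 in the tagged arrays and 5.72 ± 0.17 in the untagged arrays. Its difference was 3.70 (SE 0.19, 95% interval 3.25 to 4.16, limma adjusted p = 7.89e-05), with 3.51 in carcinomas and 3.93 in papillomas. Each of these genes has a single probe set, so no second reading was possible, and no fold is given since the untagged levels lay below the median gene (6.64). With the papilloma arrays alone, 1 tagged against 2 untagged, the Hey1 difference was 3.59 with a wider SE of 0.52 (limma adjusted p = 0.0679), a fit in which the tagged arm has no replicate.

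Nrarp averaged 11.08 in the tagged arrays and 9.41 ± 0.92 in the untagged arrays (n = 2 and 5, SD for the untagged). The tagged arrays had 10.97 and 11.20, against 7.85 to 10.14 in the untagged arrays. The difference of 1.60 (SE 0.54, 3.04-fold) did not pass the test (limma adjusted p = 0.0878). The second probe set, 1417986_at, had 8.72 and 9.11 in the tagged carcinoma and papilloma arrays, against 6.82 to 8.63 in the untagged arrays, a difference of 0.89 (SE 0.46). Carcinoma 3 set much of the spread. Without it the brightest probe set passed (limma adjusted p = 0.0183).

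The probe sets of Jag2 disagreed in sign, while those of Jag1 were all lower in the tagged arrays but by different amounts. Jag2 lay at 9.98 and 9.91 in the tagged arrays, above 8.29 to 9.50 in the untagged arrays, a difference of 1.10 (SE 0.32, limma adjusted p = 0.0565). This probe set is the brighter of the pair only through the tagged arrays, and with both averaged the difference was 0.45 (SE 0.36, limma adjusted p = 0.454). On its second probe set, 1426431_at, the tagged arrays had 8.62 and 9.07, inside the untagged range of 7.86 to 9.90, and the difference was -0.20 (SE 0.49). Jag1 differed by -0.71 (SE 0.38, limma adjusted p = 0.258) on its brightest probe set, where carcinoma 3 lay below both tagged arrays. Its other probe sets fell further, and with all 3 averaged the difference was -1.39 (SE 0.39, limma adjusted p = 0.0548). Probe set 1421106_at had 7.25 and 7.14 in the tagged carcinoma and papilloma arrays, against 8.11 to 10.10 in the untagged arrays, a difference of -2.15 (SE 0.52, limma adjusted p = 0.0371 over the probe sets). Probe set 1421105_at had 5.56 in both tagged arrays, against 6.22 to 7.42, a difference of -1.32 (SE 0.34, adjusted p = 0.0465 over the probe sets). The Gapdh 3′ minus 5′ difference moved with the tag, and where each probe set lies along its transcript is not analysed here, so its part in these disagreements was not tested.

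**Figure D3:**
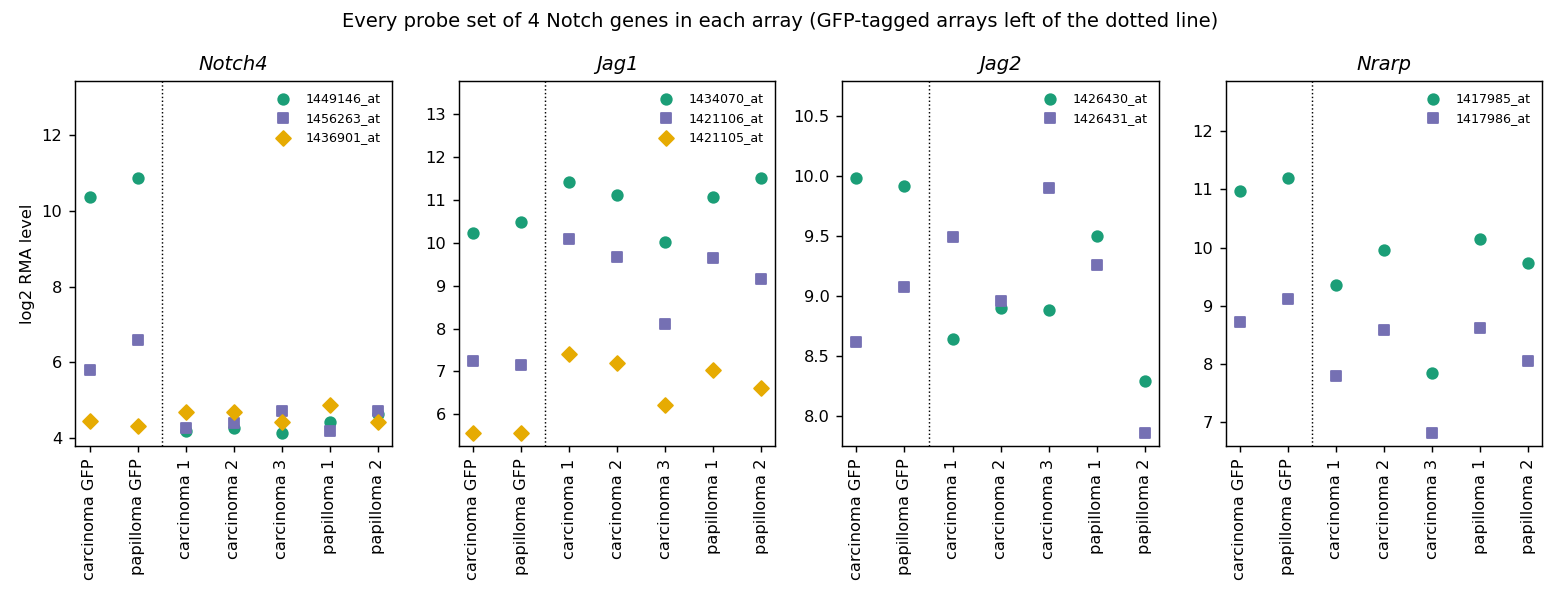
Level of every single-symbol probe set of Notch4, Jag1, Jag2 and Nrarp in each array on the log2 RMA scale, with the 2 tagged arrays left of the dotted line. Notch4 probe set 1449146_at is bright in the tagged arrays alone, the tagged arrays are lowest on 2 of the 3 Jag1 probe sets, and only 1 of the 2 Jag2 probe sets is high in them.

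Notch1 differed between tagged and untagged arrays by 0.32 (SE 0.36, 95% interval -0.54 to 1.18), and by -0.08 (SE 0.32) on its second probe set. Notch2 differed by 0.40 (SE 0.32, 95% interval -0.37 to 1.17), and by -0.50 on 1451889_at (SE 0.32). Notch3 differed by 0.16 (SE 0.77), with an interval of -1.67 to 1.98, too wide to bound it. For these 3 receptors the tagged arrays lay inside the range of the untagged arrays on the brightest probe set. Hes1 differed by -0.03 (SE 0.19, 95% interval -0.48 to 0.42, limma adjusted p = 0.941), so a change of 0.5 units in either direction lies outside its interval. The difference of the tag effect between tumour types had a limma interaction adjusted p of 1 for each member, and 0% of all genes passed that test. Each tumour type has a single tagged array, so this test has little power and does not show that the effects were alike.

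The rest of the pathway was mixed. Of the 49 measured genes 11 rose with the tag and 2 fell on their brightest probe sets, against the 11.9% and 7.93% of all genes. Their median was 0.19. With the probe sets of each gene averaged, 9 of the 49 rose and 3 fell, against 1846 and 1385 of all genes. Without carcinoma GFP the calls among them were 1 and without papilloma GFP 5. Among ligands Dll4, the Delta ligand of arterial endothelium, had 8.63 in the tagged carcinoma and 9.15 in the tagged papilloma array, against 4.43 to 5.47 in the untagged arrays. It rose by 3.98 (SE 0.32, limma adjusted p = 0.000419), the largest difference of the 49. Dlk1 rose by 0.75 (SE 0.21, limma adjusted p = 0.0499) and Dlk2 fell by 0.80 (SE 0.22, limma adjusted p = 0.044), both non-canonical ligands. Of 8 genes of receptor cleavage, Adam10, the metalloprotease that makes the first cut after binding, rose by 1.004 (SE 0.16). Psen2, a catalytic subunit of gamma-secretase, rose by 1.44 (SE 0.22), and Aph1a, a structural subunit of the same complex, fell by 0.96 (SE 0.17). The acetyltransferase Kat2b was the only 1 of 6 nuclear complex genes called, higher by 1.69 (SE 0.25).

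In trafficking and turnover 4 of 12 genes rose, beside 11.9% of all genes. Each role holds few genes, so the counts by role are no result about a role. Neurl1b rose by 2.13 (SE 0.48) and Numb, an endocytic adaptor that restrains Notch, by 1.70 (SE 0.33). Dtx3l rose by 1.45 (SE 0.28) and Dtx3 by 0.88 (SE 0.24, limma adjusted p = 0.0433). Of 9 other targets 2 rose, both of the Hey family: Heyl by 1.47 (SE 0.18, limma adjusted p = 0.00237) and Hey2 by 1.40 (SE 0.29, limma adjusted p = 0.0177). Hey2 remained dim, at 5.51 in the tagged carcinoma and 4.49 in the tagged papilloma array, against 3.28 to 3.78 in the untagged arrays. The 4 glycosylation genes and 4 corepressor genes had no call. The widest differences there were 0.85 for Pofut1 (limma adjusted p = 0.0523), -0.34 for Lfng, a Fringe enzyme like Mfng, -0.41 for Cir1 and 0.35 for Spen.

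**Figure D4:**
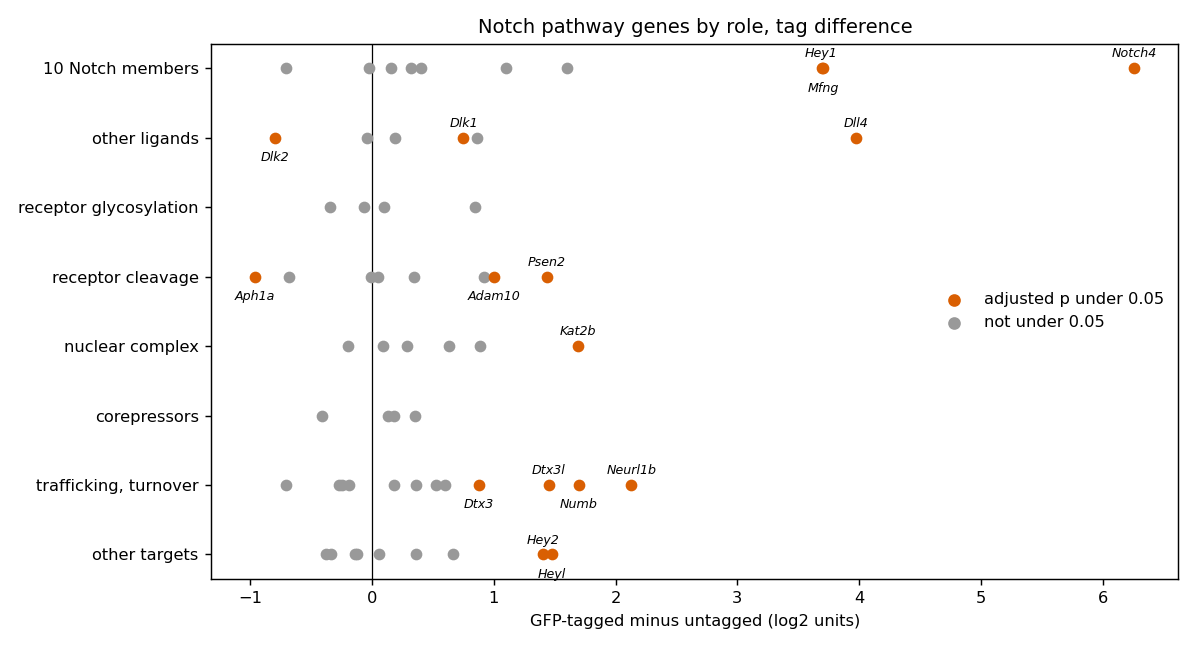
Difference between GFP-tagged and untagged arrays in log2 units for the 10 members and 49 other pathway genes, 1 row per role and 1 point per gene. Orange points passed an adjusted p of 0.05 and carry their names. The 4 points furthest to the right are Notch4, Dll4, Mfng and Hey1.

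Among the untagged arrays the members fell into different orders. Carcinoma 3 was lowest of the 5 for Notch3, Nrarp and Jag1 on all of their probe sets. Papilloma 2 was lowest for Notch1 and for Jag2 on both of their probe sets, and for Notch2 on the brightest. The median of 10 suprabasal keratinocyte markers was 7.18 in carcinoma 3 and 6.54 in papilloma 2, against 7.37 to 8.56 in the other 3 untagged arrays. Single markers of that list went the other way, with Krt1 at 11.09 and Krt10 at 11.77 in papilloma 2, the highest of all arrays. The fibroblast median was 5.89 in carcinoma 3, the lowest of all arrays. The median of the 8 pericyte and smooth muscle markers was also lowest there, at 5.41, but the list was split. Pdgfrb (3.29), Rgs5 (4.12), Acta2 (7.67), Myh11 and Kcnj8 were lowest in carcinoma 3. Cspg4 (7.28), Des (6.53) and Abcc9 (6.22) were not, and lay higher there than in carcinomas 1 and 2. The part of these markers in the orders of the Notch genes was not tested.

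Patterns closest to each member were sought for the 5 members whose levels ranged over more than 2 log2 units, by the root mean square difference over the 7 arrays after centring, among genes above the median gene. Notch4 was nearest to Podxl (0.26), Ptprb (0.26) and Grb10 (0.27). Mfng was nearest to Apln (0.13), Hlx (0.20) and Tmem88 (0.20), and Hey1 to Emid1 (0.19), Mgat4a (0.21) and Hlx (0.21), so Hlx stood near both. Nrarp was nearest to Atp6v0b (0.24), Slc23a2 (0.26) and Creg1 (0.31). Notch3, highest in papilloma 1 and lowest in carcinoma 3, was nearest to Ap1s2 (0.27), Hs3st1 (0.28) and Rasa2 (0.28). These are descriptions over 7 arrays that share the tag contrast. The filter on neighbours used the mean over all 7 arrays, which the tagged arrays raise in genes that are high there. Notch4 itself lay under that filter. Its neighbours differed with the tag by 6.12 to 6.65, so its list largely restates the tag contrast.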

How the data were processed

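RNA of sorted tumour cells had been measured on 7 Affymetrix mouse arrays, 4 of carcinomas and 3 of papillomas. Per the labels' protocols, the authors extracted RNA with a micro kit, amplified it, labelled it with biotin and normalized the arrays with RMA, and affy is also listed in the submitters' processing notes. The deposited values run from 2.72 to 14.51 and were read as log2 from this range, since no label states the scale. RMA corrects background, brings the arrays to a like distribution (medians here 5.38 to 5.51) and summarises probe sets, so it can hide a shift shared by most genes. The labels name a strip version of the mouse array, while gene names come from an annotation of 2016 for the standard version and rest on that match. Of 45101 probe sets 34945 had 1 symbol, 932 had several, and 64 were controls that were left out.

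Each gene was read on its single-symbol probe set with the highest mean over all 7 arrays, which gave 18193 genes, and the members' other probe sets were fitted in a table of all 34945. Dim probe sets were kept, because no detection calls are in the table used here. Tumour type was tested with lmFit and eBayes of limma 3.58.1 in R 4.3.3, without covariates. The tag was tested with tumour type as a covariate, and their interaction in a fit of its own. Benjamini-Hochberg adjustment ran over the whole table, with a threshold of 0.05. Exact permutation tests were two-sided over all splits of the 7 arrays. The number of arrays limits the precision. The fits were tested on simulated data. Alternatives changed the probe set rule, the filter on dim genes, the scaling, the covariates, array weights, the arrays used and the replicate block.

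Both tumour types have arrays numbered 1 and 2 and an array tagged GFP. Deviations from the group means correlated at 0.476, 0.194 and 0.861 for the same-numbered pairs, all above 0.1, but arrays of unlike number also reached 0.683. The numbers pass the rule for pairs, but the deviations still hold the tag difference. Tagged and untagged arrays correlated at -0.687 to -0.501, so the rule cannot show that the numbers mark pairs. Carcinoma 2 correlated with papilloma 1 at 0.683 and with papilloma 2 at 0.194. The fit with the replicate block is given as an alternative, which changed no call. The members, the other pathway genes and the marker lists were chosen with earlier results of these data known. The rule for named genes took all members, any other pathway gene that passed a test and otherwise the 2 with the largest difference in each role. The listed pathway genes beyond the 49 measured are not analysed here. Figures were drawn with matplotlib.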

Additional observations from a re-analysis of the deposited data

Results flagged for a closer look

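Among the 4 carcinoma arrays 1 stood apart from the others by Dixon's test in 3 Notch genes, and it was carcinoma GFP each time. Notch4 had 10.369 there, against 4.12 to 4.26 in the other carcinomas. Hey1 had 9.907, against 5.92 to 6.45, and Mfng had 9.169, against 5.49 to 5.77. The gap to the nearest array took 0.978, 0.867 and 0.925 of the whole range of the group for these genes. These are the 3 members called higher with the tag, so the result repeats that contrast and adds no support to it. Where no array differs, such a result comes in about 1 of 20 groups, and the 3 genes share the same array and are not independent. Only the members were tested in this way, so there is no share over all genes. Among the 5 untagged arrays no member had an array that stood apart by this test. Papilloma GFP had 10.87, 9.79 and 9.74 in the same genes, but groups of 3 arrays were not tested.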

How the results depend on the processing

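In the tumour type comparison 0 members and 0 genes were called under every alternative run, including the replicate block (0 genes called, 500 at an unadjusted p under 0.05). No paired analysis was possible for the tag, because the tag is itself a level of the block. Of the alternatives for single members 137 kept direction and call in the tumour type comparison and 22 turned direction. In the tag comparison 136 kept both, 11 turned direction, 11 gained a call and 1 lost it. The causes were not tested.

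Genes called for the tag numbered 3601, against 6819 with array weights, 1710 with carcinoma arrays only, 169 with papilloma arrays only, and 861 (without carcinoma GFP) to 3955 (without papilloma 2) when 1 array was left out, with 1462 without papilloma GFP. Leaving out a tagged array, or using 1 tumour type, leaves 1 tagged array, which is then assumed to vary like the others. Calls split into 2159 higher and 1442 lower, against 1840 and 1852 with upper quartile scaling, with a median of all genes at -0.19 in place of -0.05, and 2134 and 2257 with quantile normalization. Members called numbered 3, against 6 with array weights and 3 to 5 when 1 array was left out. Other pathway genes called numbered 13, against 21 with array weights, 7 with carcinoma arrays only, 1 with papilloma arrays only and 1 to 13 when 1 array was left out. Notch4, Hey1 and Mfng kept their direction in every alternative of the tag comparison that gave a value. Hey1 lost its call with papilloma arrays only. The filter on genes above the median left no value for Notch4. Hey1 and Mfng passed that filter only through the tagged arrays. Their untagged arrays reached at most 6.57 and 5.95, under the median gene (6.64). The filter is therefore no support for these 2 genes. Jag2 gained a call with the dim-gene filter (limma adjusted p = 0.0446), upper quartile scaling (0.0388), quantile normalization (0.0269), array weights (0.0069), no covariate (0.0334), and without papilloma 1 (0.00975) or papilloma 2 (0.0457), but averaging its probe sets gave 0.452 (0.454). Averaging gave 2.574 for Notch4. Jag1 gained one with array weights (0.0354) or without carcinoma 3 (0.0341), and Nrarp likewise (0.0228 and 0.0183).

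Tumour type differences that turned were all smaller than their SE in the comparison of all 7 arrays. With all probe sets of a gene averaged they were 0.007 for Notch3, 0.002 for Jag1 and 0.188 for Jag2. Notch3 gave 0.09 without x_at and s_at probe sets and 0.506 with the replicate block. Hes1 gave -0.033 with upper quartile scaling, -0.044 with quantile normalization, -0.031 with array weights and -0.015 among untagged arrays. Leaving out 1 array gave, turned or not, ranges of -0.031 to 0.428 for Notch1, -0.442 to 0.506 for Notch3, -2.454 to 1.209 for Notch4, -0.597 to -0.081 for Jag1, -0.606 to 0.205 for Jag2, -1.305 to -0.265 for Nrarp, -0.065 to 0.122 for Hes1, -1.27 to 0.872 for Hey1 and -1.456 to 0.728 for Mfng. The extremes of Notch4, Hey1 and Mfng came without carcinoma GFP and without papilloma GFP. For the tag, Notch2 turned to -0.054 with probe sets averaged, and Notch3 to -0.064 without s_at probe sets, -0.194 with array weights and -0.141 with papilloma arrays only. Hes1 turned to 0.018 with carcinoma arrays only. Leaving out 1 array gave -0.269 to 0.51 for Notch3 and -0.095 to 0.054 for Hes1.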
